A study of Mus musculus with 6 samples.

Results

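The genes for voltage-gated calcium channels, voltage-gated sodium channels and hyperpolarization-activated (HCN) channels were examined in the vestibular sensory epithelium of mice, and were taken as every protein-coding gene whose symbol begins with Cacna, Cacnb, Cacng, Scn or Hcn followed by the member's number. This gave 44 of the 52636 genes in the table. They comprised 10 calcium channel α1 genes, 4 α2δ genes, 4 calcium channel β genes, 8 γ and TARP genes, 10 sodium channel α genes, 4 sodium channel β genes and 4 HCN genes. The comparison was between 3 Control mice, which drank plain water, and 3 mice given 3,3'-iminodipropionitrile (IDPN), a nitrile toxic to inner ear hair cells (HCs), at 30 mM in the drinking water for 8 weeks. All 6 animals were male 129S1/SvImJ mice, aged 2 to 4 months when exposure began. Each library was made from the 2 utricles and 6 cristae of 1 animal, so it mixed HCs, supporting cells, nerve terminals and other cells of the dissected tissue. Fewer cells of a type and less RNA per cell cannot be told apart in such samples.

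Voltage-gated calcium channels are built around a pore-forming α1 subunit that carries the voltage sensor. The cytoplasmic β subunit and the extracellular α2δ subunit help to bring the channel to the membrane and tune its gating. In HCs, CaV1.3, encoded by *Cacna1d*, is the channel that couples receptor potentials to glutamate release at ribbon synapses. Voltage-gated sodium channels consist of a large α subunit with small β subunits and generate action potentials in axons. HCN channels open on hyperpolarization and carry the mixed cation current Ih, which vestibular HCs and their afferents possess.

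In the main analysis 3 of the 4 α2δ genes passed the test, the most of any family, beside 5.75% of all 17650 genes tested. The call rule asked for an adjusted p (Padj, Benjamini-Hochberg over all genes, DESeq2 Wald test) under 0.05 together with a fold change above 1.5. By this rule *Cacna2d4*, *Cacna2d1* and *Cacna2d3* fell after IDPN, and the sodium channel gene *Scn9a* rose. *Cacna2d4* fell to 23.1% of the Control level and was called in each of the 14 alternative analyses run. The calls of the other 3 genes were lost in some of them. *Cacna2d1* was called in 12, *Scn9a* in 11 and *Cacna2d3* in 5. With total-count scaling *Cacna2d4* was the only α2δ gene called. The α1 genes *Cacna1d* and *Cacna1e* and the calcium channel β genes were not called.

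The 4 α2δ proteins share a von Willebrand factor A domain whose metal ion-dependent adhesion site takes part in binding and trafficking the α1 subunit. The coding stretch over that site is shown because 3 of the 4 genes were called. It was read from the longest open reading frame of each gene's GENCODE M21 transcripts, with the 5 codons of the adhesion site motif in capitals.
Cacna2d1: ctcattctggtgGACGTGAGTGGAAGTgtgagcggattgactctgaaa
Cacna2d2: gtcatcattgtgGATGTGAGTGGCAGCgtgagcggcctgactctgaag
Cacna2d3: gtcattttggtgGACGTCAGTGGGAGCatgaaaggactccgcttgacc
Cacna2d4: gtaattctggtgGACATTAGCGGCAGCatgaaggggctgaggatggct
Over these 48 bases *Cacna2d1* and *Cacna2d2* were identical at 79.2% of positions, and *Cacna2d3* and *Cacna2d4* at 70.8%. The other 4 pairs shared 62.5% to 66.7%. *Cacna2d1* and *Cacna2d2* also encode the arginine triplet to which gabapentin and pregabalin bind, printed here with its 3 arginine codons in capitals.
Cacna2d1: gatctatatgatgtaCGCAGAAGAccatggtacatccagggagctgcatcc
Cacna2d2: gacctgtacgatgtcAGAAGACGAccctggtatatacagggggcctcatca
None of the 76-base words in the transcripts of *Cacna2d1*, *Cacna2d3* and *Cacna2d4* occurred in another gene's transcripts, so at that length the reads of these genes could be assigned to 1 gene.

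Of the 44 genes, 10 had no count in any library: *Cacna1s*, *Cacna1i*, *Scn3a*, *Scn4a*, *Scn10a*, *Scn11a*, *Cacng1*, *Cacng2*, *Cacng6* and *Cacng8*. A further 5 (*Cacna1f*, *Cacna1h*, *Cacng3*, *Cacng7* and *Scn1a*) were too low for an adjusted p, with at most 9 counts in a library. The remaining 29 were tested, and 8 of them had a mean of at least 100 normalized counts (counts divided by the library's size factor). Of the 29, 4 were called lower (13.8%) and 1 higher (3.45%). Over all 17650 genes tested, 3.42% were called lower and 2.32% higher, 5.75% in all. The edgeR quasi-likelihood test called 2 members lower, beside 2.19% of its 16310 genes (3.21% in either direction, 1.02% higher). With total-count scaling 1 member was called lower, beside 1.28% of 16712 genes (4.92% in either direction, 3.64% higher). At an unadjusted p under 0.05 (DESeq2 Wald test), 6 of the members were lower and 1 was higher. The share of all genes at that threshold was not computed, so these counts cannot be set against it. The median log2 fold change of the 29 genes was -0.13, beside 0.02 over all genes tested. In 5 of the 29 genes every IDPN library lay below every Control library and in 2 every one lay above, beside 11.4% and 11.1% of all genes tested. Those lower included *Cacna2d4*, *Cacna2d1*, *Cacna2d3* and *Cacna1e*, and those higher were *Scn9a* and *Cacnb3*. Total estimated counts ran from 40474800 to 43566300 per library, of which the 44 genes took 0.0107% to 0.0205%.

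**Figure D1:**
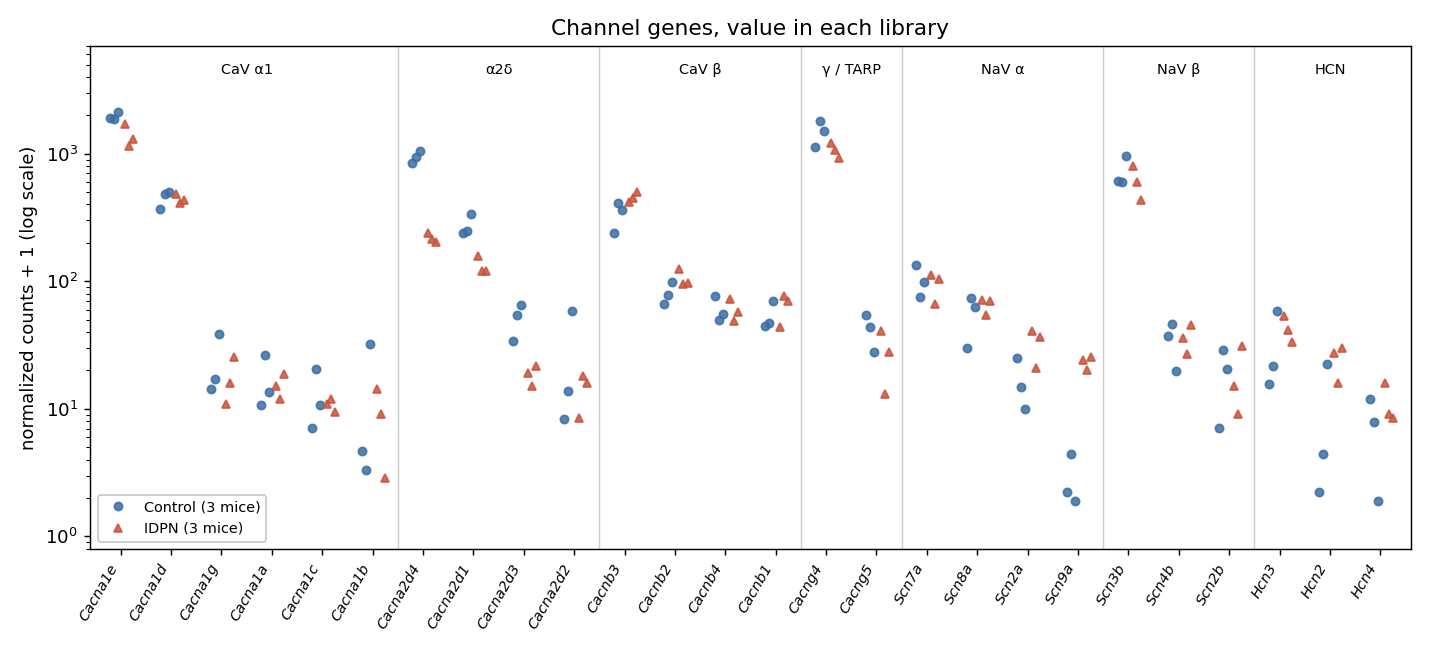
Normalized counts plus 1 (log axis) of 26 channel genes, in each Control library (circles) and each IDPN library (triangles), ordered by family and by mean level. The 3 IDPN libraries lie below the 3 Control libraries for Cacna2d4, Cacna2d1, Cacna2d3 and Cacna1e, and above them for Scn9a and Cacnb3.

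*Cacna2d4* encodes the α2δ subunit best known as a partner of the CaV1.4 channel in photoreceptors. It lies on chromosome 6 (119236526 to 119352407, plus strand, GRCm38) and was the most abundant α2δ gene. The Control libraries held 839, 945 and 1048 normalized counts and the IDPN libraries 237, 214 and 203. The lowest Control library was above the highest IDPN library, and the 3 IDPN libraries were close together. The log2 fold change was -2.12 (SE 0.19), with a DESeq2 Padj of 8.48e-26 and an edgeR Padj of 0.000280.

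*Lrtm2* lies within *Cacna2d4* on the opposite strand and shares no exon base with it. It fell from 10327 ± 1020 to 4805 ± 1110 (SD, n = 3) on the normalized scale, with a log2 fold change of -1.10 and a DESeq2 Padj of 1.06e-06. The library kit does not mark strand, so intronic reads of the nested pair would not be told apart by strand. The partner gene *Cacna1f*, which encodes CaV1.4, had 1 count over the 3 Control libraries and 5 over the 3 IDPN libraries.

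*Cacna2d1* encodes the widespread α2δ-1 subunit of muscle and neuronal calcium channels and lies on chromosome 5 (15934691 to 16374511, plus strand). Control libraries held 239, 245 and 338 normalized counts and IDPN libraries 158, 119 and 119. The groups did not overlap, and Control 3 stood above the other two Control libraries. The log2 fold change was -1.06 (SE 0.26), with a Padj of 0.00207 in DESeq2 and 0.0411 in edgeR. With libraries scaled to their total counts the log2 fold change was -0.82 and the DESeq2 Padj 0.150, so the call was lost.

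*Cacna2d3*, for the brain-enriched α2δ-3 subunit, lies on chromosome 14 (28904943 to 29721864, minus strand). Its values were 32.7, 53.1 and 64.1 in Control and 18.2, 14.1 and 20.5 in IDPN, again with no overlap. The fitted log2 fold change was -1.51 (SE 0.51) with a DESeq2 Padj of 0.0486, close to the threshold, and 0.108 in edgeR. The call was made in 5 of 14 alternatives and in 1 of the 6 that left out a library, where the DESeq2 Padj ran from 0.0457 to 0.203.

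*Cacna2d2*, whose product supports P/Q-type channels in the cerebellum, had 7.28, 12.7 and 57.8 normalized counts in Control and 7.45, 17.1 and 14.9 in IDPN. Control 3 alone was high, and the other libraries of both groups overlapped. The 95% interval of its log2 fold change ran from -2.57 to 0.57, with a DESeq2 Padj of 0.596.

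Levels could be compared between genes after division by exon length. The summed α2δ level per kb of exon was 131 ± 20.2 in Control against 37.2 ± 3.04 in IDPN (SD, n = 3), or 28.5% of Control. *Cacna2d4* made up 76.6% of the Control sum and 61.7% of the IDPN sum. The share of *Cacna2d1* was 16.8% in Control and 28.3% in IDPN. The summed α1 level was 119 ± 13.1 in Control and 94.2 ± 14.4 in IDPN. The α2δ sum divided by the α1 sum was 1.05, 1.09 and 1.14 in Control and 0.370, 0.437 and 0.389 in IDPN, so that the IDPN mean was 36.5% of the Control mean. This ratio needs no scaling between libraries. The percentage was 39.4% without division by length and 59.4% when *Cacna2d4* was left out. The sums were formed with the values known, and no test was made on them.

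**Figure D2:**
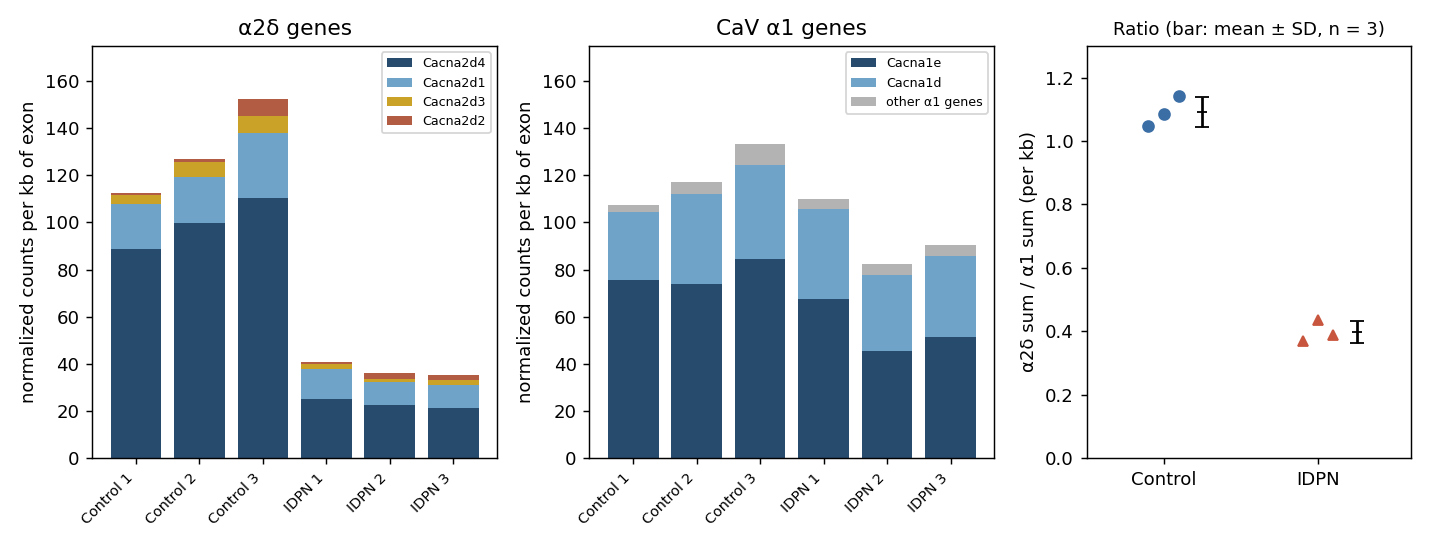
Summed levels of α2δ genes (left) and calcium channel α1 genes (middle) in normalized counts per kb of exon, stacked by gene for each library, and the ratio of the 2 sums in each library (right, with mean ± SD, n = 3). The α2δ stacks run from 112 to 152 in Control and from 35.1 to 40.7 in IDPN, while the α1 stacks of the groups overlap.

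None of the 10 α1 genes was called. *Cacna1e* encodes the R-type channel CaV2.3 and had the highest α1 level, 65.5% of the α1 sum per kb in Control and 57.8% in IDPN. Control libraries held 1902, 1862 and 2134 normalized counts and IDPN libraries 1702, 1141 and 1300. The groups did not overlap, although IDPN 1 lay close to the Control range. DESeq2 gave a log2 fold change of -0.51 (SE 0.19, 95% interval -0.88 to -0.14) with a Padj of 0.0834. When IDPN 1 was left out it was -0.68 with a DESeq2 Padj of 0.00869 and passed the rule.

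*Cacna1d* held 368, 482 and 500 normalized counts in Control and 484, 412 and 432 in IDPN. Every IDPN value fell within the Control range. Its log2 fold change was -0.02 with a 95% interval of -0.42 to 0.38 and a DESeq2 Padj of 0.975, so a fall to 74.5% or a rise to 130% of Control lay at the limits of what these libraries allow. The 3′ end of *Cacna1d* shares 589 exon bases with the opposite-strand gene *Chdh*, and 3.94% of its 76-base words also occurred in transcripts of other genes. *Chdh* was measured at 489 ± 93.9 in Control and 672 ± 165 in IDPN (SD, n = 3), with a DESeq2 Padj of 0.284.

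The other 4 α1 genes tested, *Cacna1a* (P/Q-type), *Cacna1b* (N-type), *Cacna1c* (the L-type CaV1.2) and *Cacna1g* (T-type), had means between 7.71 and 22.3 normalized counts in either group. Their log2 fold changes lay between -0.70 and -0.15, and each 95% interval included 0. In *Cacna1b*, Control 3 held 31.1 normalized counts and the other two Control libraries 3.64 and 2.31.

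The 4 β genes were not called. *Cacnb3* was the most abundant, at 76.9% of the β sum per kb in Control and 80.0% in IDPN. It was measured at 240, 406 and 362 normalized counts in Control and 420, 445 and 497 in IDPN. Each IDPN library exceeded each Control library, by a small margin over Control 2. The change of 0.43 on the log2 scale (SE 0.23) had a DESeq2 Padj of 0.334. *Cacnb2*, whose product is a β subunit of the HC channel, held 65.5, 77.3 and 97.0 in Control and 124, 94.4 and 95.2 in IDPN, which overlapped, with a 95% interval of its log2 fold change from -0.25 to 1.02. *Cacnb1* and *Cacnb4* had log2 fold changes of 0.23 and -0.02. The β sum divided by the α1 sum was 0.904 ± 0.139 in Control and 1.53 ± 0.291 in IDPN (SD, n = 3).

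Only *Cacng4* and *Cacng5* of the 8 γ and TARP genes were tested. These TARPs are auxiliary subunits of AMPA-type glutamate receptors. *Cacng4* made up 97.3% of the family's level per kb in Control and 97.5% in IDPN, with 1133, 1791 and 1501 normalized counts in Control and 1207, 1072 and 930 in IDPN. The groups overlapped because Control 1 was below IDPN 1. The fitted change was -0.46 on the log2 scale (SE 0.20), with a DESeq2 Padj of 0.185, and without Control 1 it was -0.63 with a DESeq2 Padj of 0.0498, which passed the rule. *Cacng5* was lower, at 40.9 ± 13.4 in Control and 26.3 ± 13.9 in IDPN (SD, n = 3), with a DESeq2 Padj of 0.649.

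**Figure D3:**
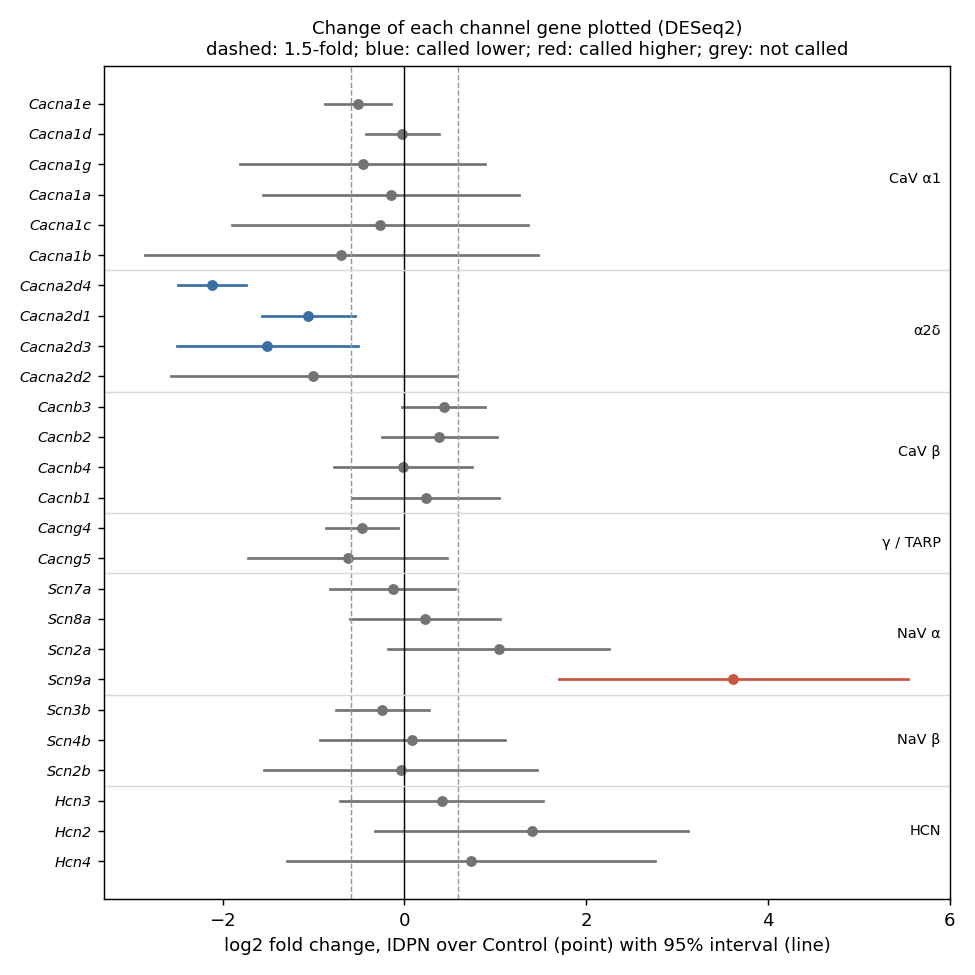
Log2 fold change, IDPN over Control, with its 95% interval (line), for 26 channel genes, by family; dashed lines mark a 1.5-fold change, blue a gene called lower, red a gene called higher and grey a gene not called. Cacna2d4 has the lowest estimate (-2.12) and Scn9a the highest (3.62), with the widest interval of the 4 called genes plotted.

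*Scn9a* encodes NaV1.7, the sodium channel of nociceptive and sympathetic neurons. It lies on chromosome 2 (66480080 to 66634962, minus strand) in a cluster with *Scn3a*, *Scn2a*, *Scn1a* and *Scn7a*. The 3 Control libraries held 1, 3 and 1 deposited counts and the IDPN libraries 28, 19 and 26. The gene was therefore almost undetected in Control and low in every IDPN library. The ratio of summed counts, corrected for library size, was 12.5 with a 95% counting interval of 5.14 to 39.8, which covers counting error only. The fitted log2 fold change was 3.62 (SE 0.98), with a Padj of 0.00678 in DESeq2 and 0.0227 in edgeR. Without IDPN 1 the DESeq2 Padj was 0.0556 and without IDPN 3 it was 0.0559. At this level the gene could be tested only through its IDPN counts. Of its 76-base words 2.73% were shared with other genes, mostly with *Scn3a*, which had no count in any library.

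*Scn7a*, which encodes the sodium-sensing channel Nax found in glia, had the highest level among the α genes, with 70.0% of the α sum per kb in Control and 58.5% in IDPN. It held 102 ± 30.0 and 92.9 ± 24.3 normalized counts (SD, n = 3; log2 fold change -0.13, DESeq2 Padj 0.918). *Scn8a*, for the nodal channel NaV1.6, averaged 54.7 ± 22.8 and 64.2 ± 9.54 (SD, n = 3). *Scn2a* held 24.3, 13.9 and 8.90 normalized counts in Control and 39.7, 20.1 and 35.5 in IDPN. The groups overlapped through Control 1 and IDPN 2, and the log2 fold change of 1.04 had a DESeq2 Padj of 0.409.

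The sodium channel β genes encode small membrane proteins that modulate the α subunits and adhere to neighbouring cells. *Scn3b* was the most abundant, with 611, 599 and 967 normalized counts in Control and 806, 601 and 434 in IDPN. The ranges overlapped broadly, and the log2 fold change was -0.24 (SE 0.26, DESeq2 Padj 0.729). *Scn4b* and *Scn2b* had log2 fold changes of 0.09 and -0.04, and each 95% interval included 0.

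Among the HCN genes, *Hcn2*, *Hcn3* and *Hcn4* had log2 fold changes above 0 and were not called. *Hcn2*, whose product responds strongly to cAMP, had 1, 3 and 24 deposited counts in the Control libraries and 32, 15 and 31 in the IDPN libraries. Control 3 thus lay within the IDPN range while Control 1 and 2 lay far below it. The log2 fold change was 1.40 with a 95% interval of -0.33 to 3.12 and a DESeq2 Padj of 0.447, and without Control 3 it was 3.32 with a DESeq2 Padj of 0.0246. *Hcn3* and *Hcn4* had log2 fold changes of 0.41 and 0.73, both with intervals that included 0. Of the 76-base words of *Hcn3*, 15.2% were shared with the overlapping gene *Pklr*, which had no count.

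**Figure D4:**
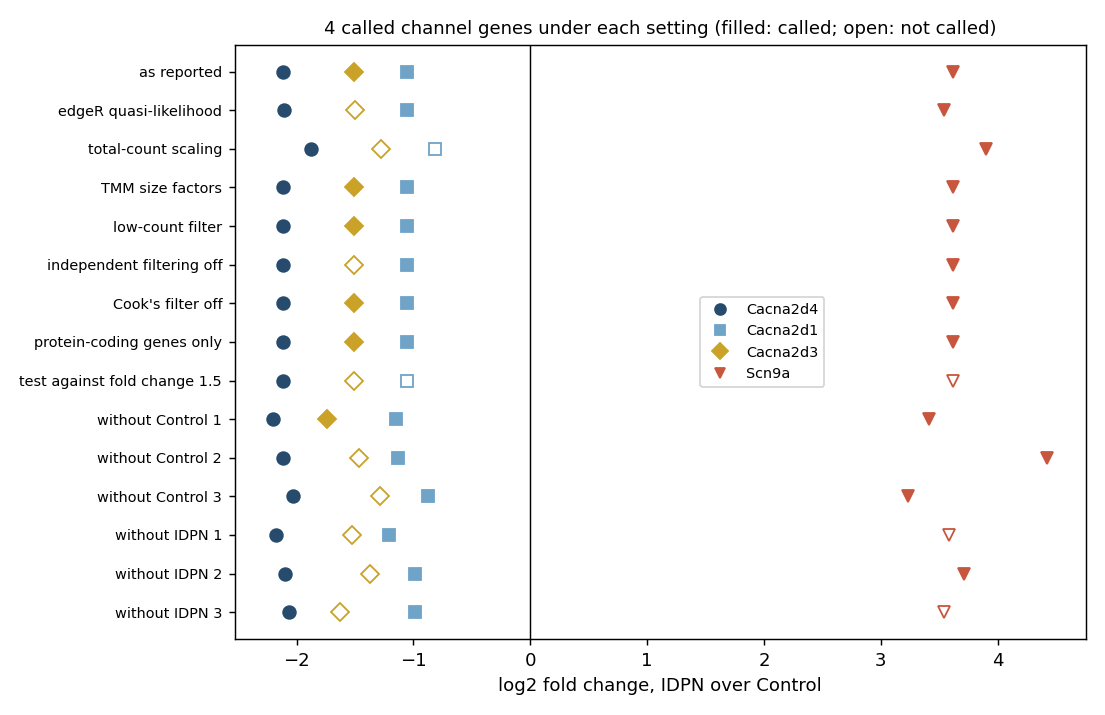
Log2 fold change of 4 called channel genes in the analysis as reported and in 14 alternatives; filled symbols passed the call rule and open symbols did not. Cacna2d4 is filled throughout, Cacna2d1 in 12 alternatives, Scn9a in 11 and Cacna2d3 in 5, and no symbol crosses 0.

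Genes whose products bind or regulate these channels were examined as a list of 27, of which 23 were tested. In it 4 fell and 1 rose, beside 3.42% lower and 2.32% higher over all 17650 genes tested. The median log2 fold change of the list was -0.03, beside 0.02 over all genes tested. Those that fell included *Calm2* (log2 fold change -0.96), a calmodulin gene whose product is the calcium sensor bound to calcium and sodium channels, and *Fgf13* (-1.15) and *Fgf14* (-1.21), whose products bind sodium channel α subunits. *Fgf13* averaged 211 ± 55.0 in Control libraries and 95.2 ± 11.3 in IDPN libraries (SD, n = 3). *Calm2* was not called by edgeR (Padj 0.0747), and *Fgf13* was not called with total-count scaling or without Control 2. With total-count scaling *Fgf14* kept its call close to the threshold (DESeq2 Padj 0.0499). *Stac2*, an adaptor that binds L-type channels, rose from 7.58 ± 1.53 to 43.0 ± 15.1 (SD, n = 3; log2 fold change 2.52, DESeq2 Padj 0.00194), and was not called without IDPN 1. *Cabp2*, the calcium-binding protein that restrains CaV1.3 inactivation in HCs, had a log2 fold change of -0.48 and a DESeq2 Padj of 0.136.

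At the ribbon synapse, where these calcium channels act in HCs, 3 of 14 genes tested fell in DESeq2, beside 3.42% of all genes tested. The list had a median log2 fold change of -0.11, beside 0.02 over all genes tested. *Otof*, the calcium sensor of HC exocytosis, fell by 0.75 on the log2 scale, the vesicular glutamate transporter gene *Slc17a8* by 1.16 and *Snap25* by 0.96. With total-count scaling *Slc17a8* kept its call (log2 fold change -0.93, DESeq2 Padj 0.0370), while *Otof* and *Snap25* lost theirs. In a list of 11 genes chosen for the node and axon initial segment, 9 were tested and 1 fell, beside the same 3.42%. This was *Cntnap2*, which averaged 834 ± 2.67 in Control libraries and 313 ± 28.7 in IDPN libraries (SD, n = 3; log2 fold change -1.41, DESeq2 Padj 8.55e-13). The libraries do not show which cells held its RNA, and where its product acts was not examined. The median of that list was -0.34.

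Markers were summed for the cells that could hold these channels. The sums of HCs, supporting cells, neurons, skeletal muscle and melanocytes did not overlap between the groups. Those of the other cell types listed overlapped. The gap was narrow for melanocytes (Control up to 14055, IDPN from 14340) and for skeletal muscle (Control from 42.7, IDPN up to 39.2). Over all single genes tested, 11.4% lay lower and 11.1% higher without overlap, and 3.42% were called lower and 2.32% higher. The share of sums that would not overlap was not computed. The summed level of 10 HC markers was 48226 to 50132 normalized counts in Control and 23152 to 26411 in IDPN, and 7 of the 10 fell. *Ptprq* made up 27.6% to 48.0% of that sum. *Ptprq*, *Atp2b2* and *Lrtm2* are on the study's list of shared decreased genes, which was drawn partly from these libraries and gives no independent evidence of direction. *Myo7a* had a log2 fold change of 0.01 and was not called. Of 10 neuron markers 9 were tested and 3 fell (*Nefl*, *Nefm* and *Snap25*), with sums of 5170 to 5561 in Control and 3385 to 3617 in IDPN. These 3 genes had Control means of 3085, 1270 and 668 normalized counts, so the neuron sums mostly reflect them. *Snap25* is also on the ribbon synapse list. *Tubb3*, *Stmn2* and *Elavl4* were low, with means of 9.47, 9.79 and 8.75 over all libraries. Of the 9 tested, 7 had log2 fold changes below 0 and 2 above (*Prph* 1.51 and *Elavl4* 1.12, neither called). For Schwann cells the sum was 122887 to 259925 in Control and 111721 to 133402 in IDPN, with 1 of 10 markers higher (*Sox10*). Supporting cell sums were 273623 to 395477 and 187924 to 226931, with 1 of 8 markers lower (*Gjb6*). *Gjb6* and *Gjb2* had Control means of 147249 and 105468 normalized counts, so these sums mostly reflect them. Skeletal muscle sums were 42.7 to 67.9 and 35.5 to 39.2, with 1 of 3 tested markers lower (*Tnnt3*). No marker was called among those of stroma (20441 to 39051 in Control and 35993 to 38675 in IDPN), melanocytes (6056 to 14055 and 14340 to 21804), macrophages (1932 to 2574 and 2126 to 3175), smooth muscle and pericytes (8689 to 12584 and 10408 to 12405) and dark and transitional cells (49995 to 84486 and 50592 to 59793). In every marker list each gene had counts in at least 1 library. The part of these cell types in the channel results was not tested.

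The levels of the channel genes per 1000 HC marker counts depended on the markers used. Per 1000 counts of the 10 markers, *Cacna2d4* was measured at 16.7, 19.2 and 21.7 in Control and 8.96, 8.73 and 8.75 in IDPN, which was 45.9% of Control. It was 35.8% of Control without *Ptprq* and *Atp2b2*, and 26.2% against *Myo7a* and *Myo6* alone, and the groups did not overlap in any of the 3. For *Cacna2d1* the same values were 95.2%, 74.5% and 54.6%, and its groups overlapped with the first denominator and not with the others. *Cacna1d* was 196%, 153% and 112% of Control. The latter 2 denominators were chosen after the values were seen. *Myo7a* and *Myo6* (log2 fold changes 0.01 and -0.21) were not called, whereas 7 of the 10 markers fell. None of these values is a measured level per HC.

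RefSeq promoter windows (250 bases before to 50 after the start, GRCm38.p6) matched 32 of the 44 genes, with no entry for *Cacna2d4*. The 100 bases before the start are printed for *Cacna2d1*, *Cacna2d3* and *Scn9a*, with each CG in capitals.
Cacna2d1, chr5:15934591-15934690, plus strand: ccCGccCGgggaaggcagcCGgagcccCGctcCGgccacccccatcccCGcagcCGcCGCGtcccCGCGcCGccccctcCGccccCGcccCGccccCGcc
Cacna2d3, chr14:29721865-29721964, minus strand: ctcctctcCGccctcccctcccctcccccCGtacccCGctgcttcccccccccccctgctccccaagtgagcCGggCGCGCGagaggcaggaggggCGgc
Scn9a, chr2:66634963-66635062, minus strand: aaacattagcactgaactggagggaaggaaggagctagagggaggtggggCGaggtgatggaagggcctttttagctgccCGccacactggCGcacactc
The 300-base windows held 42 CG in *Cacna2d1*, 41 in *Cacna2d3* and 9 in *Scn9a*, beside a median of 7 over all 32851 windows. On both strands the GC box GGGCGG occurred 7 times in *Cacna2d1* and 6 times in *Cacna2d3*, where 35.7% of all windows held at least 1. The letters CAGCTG occurred once in *Cacna2d3* (16.3% of all windows). Neither TATAAA (13.6% of all windows) nor TTCAGCACC (0.371%) was found in the 3 windows.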

How the data were processed

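Vestibular epithelium of 3 Control and 3 IDPN mice was profiled by SMART-seq2, which copies polyadenylated RNA from 6 to 11 ng of input without molecular identifiers, in 1 batch per the labels. The authors aligned reads with STAR 2.5.3a to GRCm38 and estimated counts with RSEM (version 2.3.0 in the submitters' notes). The deposited values are these expected counts, whole numbers without normalization. RSEM divides reads that match several genes.

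Here, all genes were tested with DESeq2 1.42.0 (R 4.3.3; median-of-ratios size factors, 0.825 to 1.21; no covariate), called at Padj under 0.05 and fold change above 1.5, and with edgeR 4.0.16 as an alternative. Intervals are 95% Wald intervals. Exon lengths and coordinates came from GENCODE M21 (GRCm38), later than the authors' release. The rule named every called gene and every gene with a mean of at least 100. Some genes of the family and lists are counted but not reported here. The genes and lists were chosen with earlier results of these data known. The code was tested on simulated data. The Control title codes share a stem that no IDPN code has, so what goes with it cannot be told apart from treatment.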

Additional observations from a re-analysis of the deposited data

How the results depend on the processing

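The count of channel genes called lower (4 as reported) was 2 with edgeR, 1 with total-count scaling, 1 when tested against a 1.5-fold change, and 2 to 4 when a library was left out. The count called higher (1) was 0 against a 1.5-fold change and 0 to 2 when a library was left out. For channel partners, the count called lower (4) was 2 with edgeR and 0 against a 1.5-fold change, with 3 to 5 when a library was left out, and the count called higher (1) was 0 against a 1.5-fold change and 0 to 2 when a library was left out. For ribbon synapse genes, the count called lower (3) was 1 with total-count scaling and 0 against a 1.5-fold change, and the count called higher (0) was 0 to 1 when a library was left out. The share of all genes called was computed only for the main analysis, edgeR and total-count scaling. Counts under the other settings therefore cannot be set against such a share. Total-count scaling moved the median gene by 0.25 on the log2 scale and gave 214 genes lower and 609 higher over all genes, where the main analysis gave 604 and 410. Of 140 fold changes of 10 channel genes under 14 alternatives, 135 kept their sign, and the 5 that changed belonged to *Cacna1d* and *Scn3b*, which were not called. The cause of these changes was not tested. No paired analysis was possible because the labels give animal codes and no replicate numbers shared between groups. Genes with low counts, such as *Scn9a* and *Cacna2d3*, are limited by counting error and amplification, and groups of 3 leave wide intervals for them.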
